A study of Mus musculus with 24 samples.

Results

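The paraoxonase family of the mouse has 3 genes, Pon1, Pon2 and Pon3, and their transcripts were followed in the retina after hypoxia. Members were all probe sets of the array whose annotation gives 1 of these symbols. This gave 6 of 45037 probe sets, for 3 of 18193 genes. Pon1 (1418190_at) and Pon3 (1419298_at) had 1 probe set each, and Pon2 had 4 (1429019_s_at, 1450686_at, 1425791_at and 1429020_at).

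Paraoxonases are calcium-dependent enzymes that open lactone rings and hydrolyse oxidized lipids. In humans PON1 and PON3 are made mainly by the liver and carried in blood on high density lipoprotein (HDL), whereas PON2 stays inside cells and is expressed in many tissues. PON1 also hydrolyses organophosphates such as paraoxon, which gave the family its name.

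The retinas came from BALB/c mice, an albino strain that carries the leucine variant of Rpe65 and is sensitive to light damage. The study asked which genes respond to hypoxic preconditioning, a treatment that protects photoreceptors from light for a limited time. The hypoxic groups breathed 6% oxygen for 6 h and then room air in darkness for 0, 2, 4 or 16 h, and the normoxic groups stayed in room air and were collected at the same times. Each of the 8 groups had 3 arrays, with 3 retinas of different mice pooled on each, so the 24 arrays represent 72 mice. The study's methods describe no light exposure for the retinas on the arrays, whereas the treatment text of the sample labels, shared by all samples, also describes a later exposure to bright light. Age and sex were not given in the sources used here. Whole retinas were pooled, so fewer cells of a type and less RNA per cell cannot be told apart in these signals.

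Values are log2 signals, and testing at a given time required that hypoxic or normoxic pools average at least 6.69, the minimum between the dim and bright peaks of the signal distribution. Array medians lay between 5.79 and 5.84. Of 15 targets of the hypoxia-inducible factor HIF-1 on the array, 14 were tested at 0 h and 13 rose, 2 of them with a normoxic mean below the threshold. Of all probe sets tested at 0 h, 15.2% rose. All 12 rod and cone markers with a probe set of their own were above the threshold in every group. Among the arrays outside hypoxia 0 h, normoxia 16 h replicate 3 and normoxia 0 h replicate 2 lay farthest from the rest, with mean Euclidean distances of 67.8 and 67.3 over the log2 signals. Normoxia 0 h replicate 2 held little lens signal (log2 sum 12.5, against 16.1 and 16.6 in the other normoxic pools of that time). The Pon1 difference at 0 h is given with and without both arrays, and no member call changed without them.

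The promoters are shown because the 3 genes lie side by side on chromosome 6 in the order Pon1, Pon3, Pon2, and only Pon1 was called at 0 h. The RefSeq promoter table (GRCm38.p6) matched all 3 genes, all on the minus strand. The 250 bases before each start are chr6:5193947-5194196 for Pon1, chr6:5298341-5298590 for Pon2 and chr6:5256234-5256483 for Pon3, printed 5′ to 3′. Capitals mark matches on either strand to ACGTG or GCGTG (HIF core motifs, the second also the core bound by AHR with ARNT), GGGCGG (the GC box), TGACNNNGC (the antioxidant response element) and AGGTCA (the hexamer bound by nuclear receptors).
Pon1: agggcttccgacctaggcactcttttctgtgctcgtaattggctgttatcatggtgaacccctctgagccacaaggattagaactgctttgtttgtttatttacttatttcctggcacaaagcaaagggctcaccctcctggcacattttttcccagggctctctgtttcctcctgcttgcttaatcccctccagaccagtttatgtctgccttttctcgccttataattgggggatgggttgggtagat
Pon2: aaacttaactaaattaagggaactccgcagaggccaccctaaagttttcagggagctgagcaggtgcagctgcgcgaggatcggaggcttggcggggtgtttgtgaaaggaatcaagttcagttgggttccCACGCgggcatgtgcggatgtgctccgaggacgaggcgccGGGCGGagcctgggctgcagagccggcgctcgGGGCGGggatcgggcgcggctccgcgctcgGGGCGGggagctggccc
Pon3: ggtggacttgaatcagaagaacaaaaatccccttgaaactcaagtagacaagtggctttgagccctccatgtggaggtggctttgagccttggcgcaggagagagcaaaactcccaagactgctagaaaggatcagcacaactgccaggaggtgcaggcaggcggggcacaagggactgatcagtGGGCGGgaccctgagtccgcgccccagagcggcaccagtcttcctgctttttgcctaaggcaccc
The Pon1 window held none of these motifs, had 3 CpG pairs and was 47.6% G or C. The Pon2 window held 1 GCGTG, starting 119 bases before the start, and 3 copies of GGGCGG, with 24 CpG pairs and 65.6% G or C. The Pon3 window held 1 GGGCGG, 65 bases before the start, with 6 CpG pairs and 56.8% G or C. Of 32851 promoter windows of this length, 16.6% held ACGTG, 28.2% GCGTG, 32.7% GGGCGG, 10.2% TGACNNNGC and 14% AGGTCA, and the median content of G or C was 52.4%. A match describes letters only.

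Pon1, the lipoprotein-borne lactonase, was the member that changed with hypoxia. Immediately after hypoxia its log2 signal was 8.33, 7.56 and 8.26 in the hypoxic pools, against 5.16, 5.24 and 5.01 in the normoxic pools. The groups did not overlap, and every hypoxic pool was above the threshold while every normoxic pool was below it. The means were 8.05 ± 0.43 in hypoxic and 5.14 ± 0.12 in normoxic retinas (SD, n = 3 each). The difference was 2.91 (SE 0.32, 95% interval 2.24 to 3.59), with an adjusted p of 7.47e-07 by limma. Because the normoxic mean was below the threshold, the fold is given as a bound, at least 2.56-fold above the threshold. Pon1 entered the test only through its hypoxic group, so it had to differ in order to be tested. The exact permutation test of 3 against 3 pools, two-sided, gave 0.1, which is the smallest p it allows. Without normoxia 0 h replicate 2 and normoxia 16 h replicate 3 the difference was 2.96.

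This count has a high background. Of the 3 member probe sets tested at 0 h, 1 was called, while 32.4% of all tested probe sets changed, 15.2% higher and 17.2% lower, and 45.4% did not overlap between treatments. From 2 h on only the bright Pon2 probe sets were tested, 2 at each time, and none was called. The background was 16.6% at 2 h (9.19% higher, 7.38% lower), 1.43% at 4 h (0.876% higher, 0.551% lower) and 0% at 16 h. At 16 h limma called 0 of 18427 probe sets, with 1173 at an unadjusted p under 0.05, and the methods' t-test also called 0, with 962 at that level. The shares without overlap were 34.8% at 2 h, 27.3% at 4 h and 11.1% at 16 h.

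After 2 h of reoxygenation Pon1 was at 6.04, 7.27 and 5.79 in hypoxic pools and at 5.20, 6.45 and 5.81 in normoxic pools. The groups overlapped, and replicate 2 was the highest pool of both. The difference was 0.55 (95% interval -0.13 to 1.22), below the signal needed for a test. At 4 h the hypoxic pools had 6.52, 6.09 and 5.71 and the normoxic pools 6.08, 5.47 and 5.72, a difference of 0.35 (95% interval -0.32 to 1.02). At 16 h the hypoxic pools had 5.34, 5.78 and 5.64 and the normoxic pools 6.03, 5.68 and 5.33, a difference of -0.09 (95% interval -0.76 to 0.58). Hypoxic and normoxic pools overlapped at each of these 3 times. Leaving out single arrays moved the difference between 0.10 and 0.86 at 2 h, between 0.14 and 0.55 at 4 h and between -0.27 and 0.09 at 16 h.

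**Figure D1:**
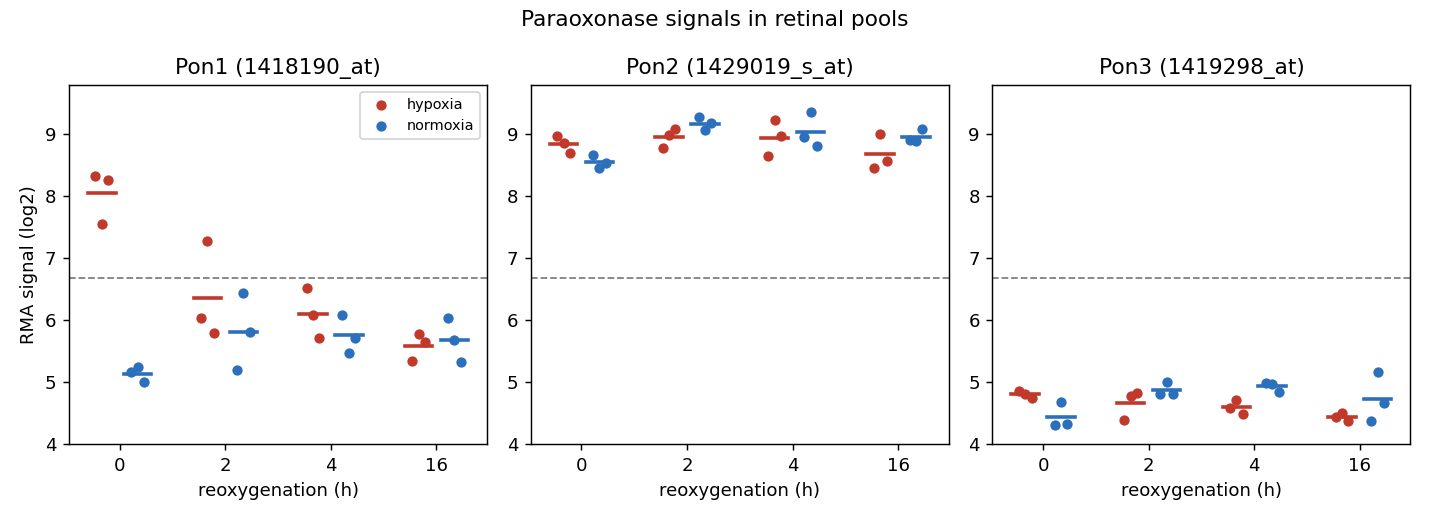
RMA log2 signal of Pon1, Pon2 (1429019_s_at) and Pon3 in each pool by hours of reoxygenation, hypoxia in red and normoxia in blue, with bars at the means of 3 pools and a dashed line at the threshold of 6.69. Only the Pon1 pools of hypoxia 0 h, between 7.56 and 8.33, stand wholly above the line while their normoxic controls lie below it.

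The hypoxia effect on Pon1 was also compared between time points. In these tests, too, Pon1 took part only through hypoxia 0 h, the 1 group whose mean reached the threshold, so a larger effect at 0 h was built into its selection. Its 0 h effect was larger than its 2 h effect by 2.36 (SE 0.46, limma adjusted p = 0.00237). It was larger than the 4 h effect by 2.56 (limma adjusted p = 0.000529), and than the 16 h effect by 3.00 (limma adjusted p = 9.95e-05). Among all probe sets tested, the effect differed between 0 and 2 h in 8.21%, between 0 and 4 h in 16.9% and between 0 and 16 h in 20.6%. Ordered by mean level, Pon1 was highest in hypoxia 0 h (8.05), followed by hypoxia 2 h (6.37), hypoxia 4 h (6.11), normoxia 2 h (5.82), normoxia 4 h (5.76), normoxia 16 h (5.68), hypoxia 16 h (5.59) and normoxia 0 h (5.14). Hypoxia 0 h exceeded the next group by 1.68 (SE 0.32), beyond its 95% interval. Each of the other neighbours in that order had an interval that held 0.

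Pon1 also varied between pools of 1 group. Its residual SD was 0.45 on the log2 scale, at the 99.3 percentile of 19336 tested probe sets, whose median was 0.13. It was at the 99.5 percentile of the 1000 probe sets nearest to it in mean. Only 4 of 24 arrays were at or above the threshold, the 3 of hypoxia 0 h and hypoxia 2 h replicate 2.

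The summed signal of markers of the retinal pigment epithelium (RPE), the cell layer that adjoins the photoreceptors, moved with Pon1. Not every marker in the sum did. The log2 sum at 0 h lay between 13.7 and 13.8 in hypoxic pools and between 12.6 and 12.8 in normoxic pools. Of 20 RPE markers 12 were tested at 0 h, 9 rose and 1, the transcription factor Mitf, fell. Over all probe sets tested at 0 h, 15.2% rose and 17.2% fell. For 7 of the 9 RPE markers that rose the normoxic mean was below the threshold, so they were tested only through the hypoxic group and had to be higher there. Among these, Rpe65, the isomerase of the visual cycle, averaged 9.26 in hypoxic and 5.78 in normoxic pools, at least 5.96-fold above the threshold. Rgr, the retinal G protein coupled receptor, averaged 10.1 in hypoxic and 6.53 in normoxic pools, at least 10.6-fold above it. The transthyretin gene Ttr, above the threshold in both treatments, rose by 3.75 (limma adjusted p = 8.45e-06). By contrast, Rlbp1 lay between 11.63 and 11.77 in hypoxic and between 11.63 and 11.74 in normoxic pools. Krt18 lay between 10.26 and 10.29 in hypoxic and between 10.29 and 10.52 in normoxic pools. Rlbp1 and Krt18 were the brightest RPE markers in the normoxic pools of 0 h. They therefore weighed most in the sum of linear signals there, and neither rose. With group means removed, Rlbp1 had a correlation of -0.29 with Pon1. It was the only RPE marker with a negative value, and it is also on the list of Mueller glia markers. The other RPE markers had positive correlations with Pon1, from 0.14 to 0.78, including 0.77 for Rpe65 and 0.75 for Rgr. Of the 11 RPE markers tested at 2 h none rose and Mitf fell by 0.51 (limma adjusted p = 0.0142). Over all probe sets tested at 2 h, 9.19% rose and 7.38% fell. The median difference of the RPE markers at 2 h was 0.69, beside 0.01 over all tested probe sets, and Rgr differed by 1.08 (adjusted p = 0.0767).

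Pon1 was related to the RPE sum within groups, although only 4 of the 24 arrays had Pon1 signals at or above the threshold. After removing group means, Pon1 correlated with the RPE sum with r = 0.81 (permutation p = 0.00087, adjusted 0.0104 over 12 relations) and rho = 0.77 (permutation p = 0.00081, adjusted 0.00972) over 24 arrays. Without the 6 arrays of 2 h r was 0.63 (permutation p = 0.0202). The 2 arrays farthest in the RPE sum were hypoxia 0 h replicates 2 and 3. Without them r was 0.87, but hypoxia 0 h then held 1 array and added nothing to the correlation. That value therefore leaves out hypoxia 0 h. Within hypoxia 0 h, replicate 1 had the lowest RPE sum (13.72) and the highest Pon1 signal (8.33). Replicate 2 had a sum of 13.79 and the lowest Pon1 signal (7.56). The sums of that group lay only between 13.72 and 13.79, too narrow a range to show whether its pools follow the relation. Single markers differed in order, since Dct and Rpe65 were highest in replicate 1, as was Pon1, whereas Rgr, Rdh5 and Ttr were lowest there. Replicate 2 at 2 h had the highest RPE sum of its group in both treatments, 13.4 in hypoxia and 13.1 in normoxia. With the RPE sum as a covariate, the difference of Pon1 at 0 h was 0.66 (SE 0.43, limma adjusted p = 0.496), and Pon1 was no longer called. In that fit 658 of 18799 probe sets were called at 0 h, against 6091 without the covariate, so the loss of a call was not particular to Pon1. The RPE sums of the treatments do not overlap at 0 h, so RPE content and hypoxia cannot be told apart at that time.

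**Figure D2:**
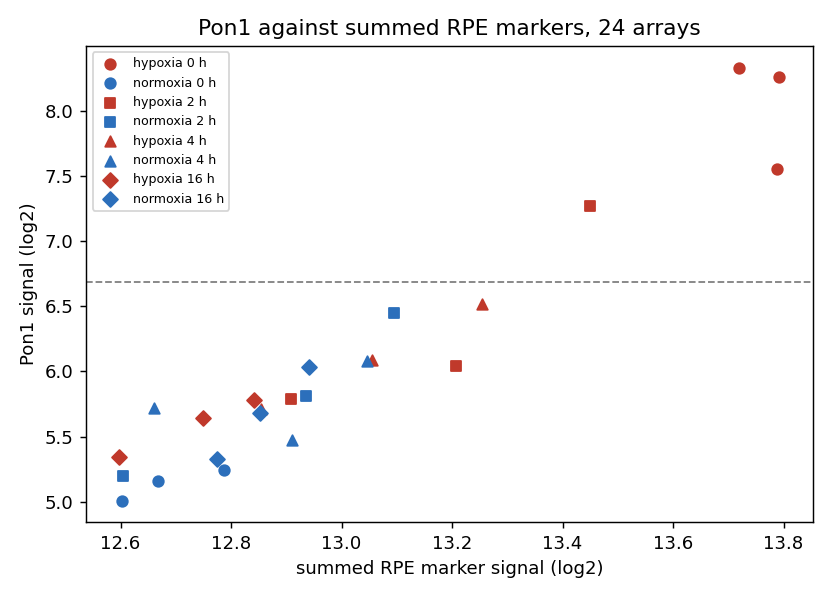
Pon1 log2 signal against the log2 summed signal of 20 RPE markers in 24 arrays, hypoxia in red and normoxia in blue, with symbols for the hours of reoxygenation and a dashed line at the threshold. The 3 arrays of hypoxia 0 h lie apart at the upper right, with RPE sums of 13.7 to 13.8.

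Genes whose pattern over the 24 arrays was most like that of Pon1, among 10337 genes, were Rdh5 (r = 0.94), Rgr (0.92), Gadd45b (0.91), Rpe65 (0.89) and Slc41a1 (0.89). Rdh5, Rgr and Rpe65 are in the RPE list. With group means removed these correlations were 0.74, 0.75, 0.58, 0.77 and 0.35. Arrays share their treatment and time, so these values describe the set of arrays.

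Pon2, the intracellular paraoxonase, was the member detected throughout. Both bright probe sets were above the threshold on all 24 arrays, with means of 8.90 (1429019_s_at) and 8.19 (1450686_at). They followed each other, with r = 0.90 over the arrays and 0.82 with group means removed. The other probe sets, 1425791_at and 1429020_at, stayed below the threshold everywhere, between 4.02 and 4.53 and between 3.57 and 4.00, and were not tested.

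At 0 h the 1429019_s_at signal was 8.98, 8.86 and 8.70 in hypoxic pools, against 8.66, 8.46 and 8.54 in normoxic pools. The hypoxic pools were all higher, but the difference of 0.29 (SE 0.15, 95% interval -0.02 to 0.61) did not pass the test (limma adjusted p = 0.147). At 2 h the hypoxic pools had 8.78, 8.98 and 9.10 and the normoxic pools 9.28, 9.07 and 9.18, a difference of -0.22 (adjusted p = 0.348). At 4 h the values were 8.65, 9.23 and 8.97 in hypoxic pools and 8.96, 9.36 and 8.81 in normoxic pools, a difference of -0.10 (adjusted p = 0.825). At 16 h they were 8.46, 9.01 and 8.58 in hypoxic pools and 8.91, 8.90 and 9.09 in normoxic pools, a difference of -0.28 (adjusted p = 0.786). Pools overlapped at 2, 4 and 16 h. For 1450686_at the differences were 0.21, -0.16, -0.03 and -0.32 at 0, 2, 4 and 16 h, with adjusted p of 0.295, 0.503, 0.944 and 0.772.

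In the fit of all arrays no difference of the Pon2 effect between time points passed the test. For 1429019_s_at the effect at 0 h minus that at 16 h was 0.58 (SE 0.22, limma adjusted p = 0.0621), and for 1450686_at it was 0.53 (adjusted p = 0.0785). Most alternative analyses did not pass either. The 1429019_s_at difference passed in 6 of 34, with limma adjusted p up to 0.201, and that of 1450686_at in 2 of 34, up to 0.328. The 1429019_s_at difference passed the threshold without hypoxia 16 h replicate 2 (0.74, limma adjusted p = 0.018), and, at 0.58, without hypoxia 4 h replicate 1 (0.0469) or normoxia 4 h replicate 2 (0.044). It also passed with quantile normalization (0.59, limma adjusted p = 0.0448) and with a trended and robust spread (adjusted p = 0.0462). That of 1450686_at passed it without hypoxia 16 h replicate 2 (0.72, limma adjusted p = 0.0138) or hypoxia 0 h replicate 3 (0.65, adjusted p = 0.0455). The normoxic groups showed a spread of their own, and 1429019_s_at was higher than at 0 h by 0.62 (SE 0.15) at 2 h, 0.49 at 4 h and 0.41 at 16 h. The F test over the normoxic groups gave an adjusted p of 0.0645, where 3.54% of tested probe sets were called.

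**Figure D3:**
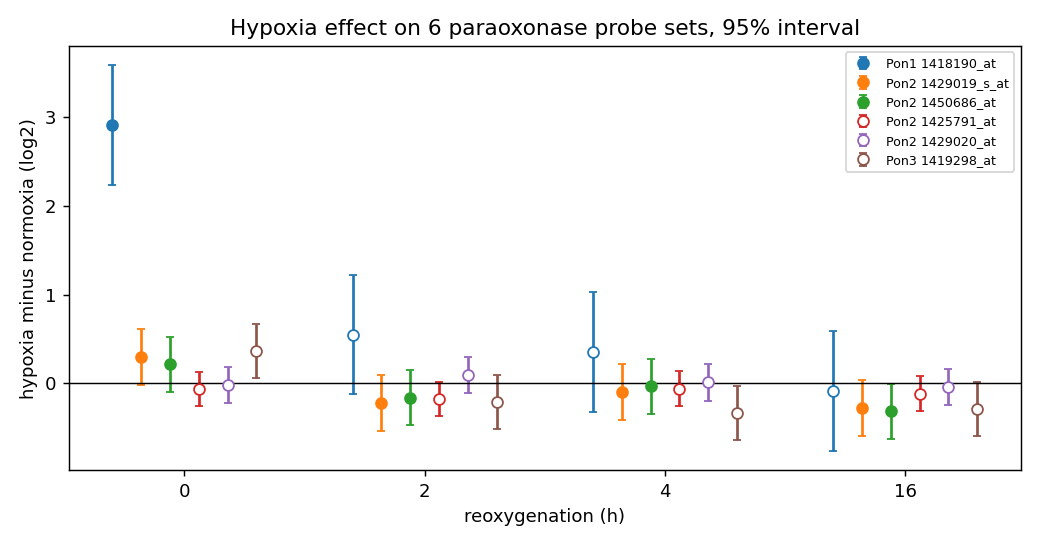
Difference between hypoxia and normoxia (log2) of the 6 paraoxonase probe sets by hours of reoxygenation, with 95% intervals of the limma fit. Filled points passed the signal filter and open points did not, and Pon1 at 0 h (2.91) is the only point far from 0.

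Pon3 was below the threshold on all 24 arrays, between 4.31 and 5.16, and was not tested. At 0 h it had 4.86, 4.80 and 4.74 in hypoxic pools, against 4.31, 4.69 and 4.33 in normoxic pools, a difference of 0.36 (95% interval 0.05 to 0.66) without overlap. At 4 h it had 4.58, 4.71 and 4.49 in hypoxic pools and 4.995, 4.97 and 4.84 in normoxic pools, a difference of -0.34 (95% interval -0.65 to -0.04), also without overlap. At 2 and 16 h the differences were -0.21 and -0.29, and the pools overlapped. These are differences of signals near background and are given without a call.

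Pon2 was also set against the marker sums. With group means removed, 1429019_s_at had a correlation of -0.13 with the RPE sum (permutation p = 0.631). With the summed signal of 9 fibroblast, sclera and choroid markers it had r = 0.64 (permutation p = 0.00505, adjusted 0.0202 over the 12 relations) and rho = 0.67 (permutation p = 0.00611, adjusted 0.0244). Without the 2 arrays farthest in that sum r was 0.63. With the lens sum it had r = 0.34 (permutation p = 0.0211, adjusted 0.0633) and rho = 0.54 (permutation p = 0.0157, adjusted 0.0377). These relations were chosen after the values were seen, and those of Pon3, below the threshold on every array, are not given. The fibroblast sum was 10.4 to 11.1 in hypoxic and 10.3 to 10.5 in normoxic pools at 0 h. With it as a covariate the Pon2 difference at 0 h was 0.12 (limma adjusted p = 0.537).

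**Figure D4:**
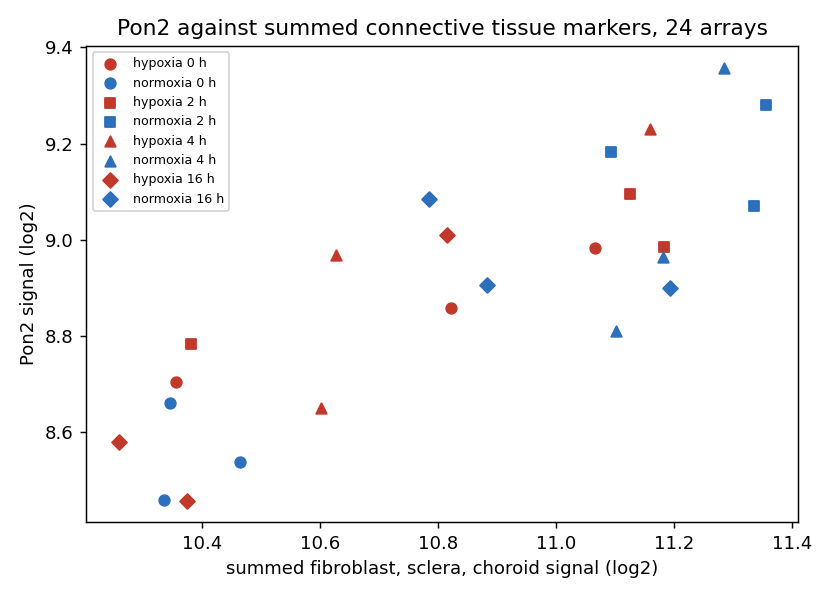
Log2 signal of Pon2 (1429019_s_at) against the log2 summed signal of 9 fibroblast, sclera and choroid markers in 24 arrays, hypoxia in red and normoxia in blue, with symbols for the hours of reoxygenation. Arrays with a higher sum had higher Pon2 signals, with r = 0.64 once group means were removed.

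The genes most like Pon2 were Csrp2 (r = 0.90), Fstl1 (0.89), Heph (0.86), Col4a5 (0.86) and Pygl (0.85). Those most like Pon3 were Iqgap2 (0.85), Fmod (0.82), Tkt (0.82), Slc6a13 (0.80) and Mxra8 (0.80). Fmod is also in the fibroblast list. Over the 24 arrays Pon1 correlated with Pon2 (1429019_s_at) with r = 0.05 and with Pon3 with r = 0.29. Pon2 correlated with Pon3 with r = 0.55 (1429019_s_at) and 0.46 (1450686_at). With group means removed these 4 correlations were -0.22, 0.15, 0.18 and 0.15. Pon3 was below the threshold on all 24 arrays, so its correlations are those of signals near background.

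Genes beside the cluster were followed as a list. The background at 0 h was 15.2% higher and 17.2% lower, and the 5 genes tested are too few to be set against it. Of 9 neighbours 5 were tested at 0 h, none rose and 2 fell, Sgce (sarcoglycan epsilon) by 0.74 (limma adjusted p = 5.76e-05) and Sem1 by 0.22 (adjusted p = 0.0158). At 2 h 3 of the 5 tested, Ppp1r9a, Casd1 and Dync1i1, fell. The background at 2 h was 7.38% lower, and the 5 genes are too few to be set against it there as well.

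Genes that act with the paraoxonases were followed as lists. Of 18 genes of the HDL particle and of cholesterol exchange on the array, 7 were tested at 0 h and 2 rose, the HDL receptor gene Scarb1 by 0.41 (limma adjusted p = 0.00291) and the phospholipid transfer protein gene Pltp by 0.30 (adjusted p = 0.0128). At 2 h the cholesterol exporter Abca1 rose by 0.61 (adjusted p = 0.0297). Of 21 enzymes that clear lipid peroxides and aldehydes 18 were tested at 0 h. Hmox1 (heme oxygenase) averaged 6.93 in hypoxic and 6.00 in normoxic pools, at least 1.18-fold above the threshold, and was tested only through the hypoxic group. Gstm1 (a glutathione transferase) rose by 0.79, whereas Gstp1 fell by 0.28 and Gpx4, which reduces lipid hydroperoxides, fell by 0.21. The shares called were 28.6% of the HDL list and 22.2% of the enzymes, beside 32.4% of all tested probe sets. The list medians were 0.19 and 0.09, beside -0.01 over all tested probe sets. None of 12 genes for proteins secreted by hepatocytes was tested at 0 h.

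Of 19 regulators named for paraoxonase transcription 14 were tested at 0 h, 4 rose and 1 fell. The share called, 35.7%, was near the background of 32.4%. Cebpd rose by 1.40 (limma adjusted p = 0.000735), Srebf1, a regulator of lipid synthesis, by 0.69 (adjusted p = 0.000569), the fatty acid receptor gene Ppard by 0.60 (adjusted p = 0.000283) and Ahr, the aryl hydrocarbon receptor, by 0.30 (adjusted p = 0.0171). Its partner Arnt fell by 0.24 (adjusted p = 0.0458). The list median was 0.10. Cebpd and Ppard were also higher at 2 h, by 1.13 and 0.36.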

How the data were processed

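Total RNA of retinal pools was measured on Affymetrix whole-genome mouse arrays. The deposited table holds RMA signals on the log2 scale, as processed by the authors (version not given in the sources used here). Their own gene lists used GCRMA and are not used here. After removal of 64 control probe sets, 45037 were kept, of which 34945 had 1 gene symbol. Groups came from the sample titles.

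One limma (3.58.1, R 4.3.3) fit over 24 arrays with 16 residual degrees of freedom gave all contrasts. The Benjamini-Hochberg adjustment ran over all probe sets tested, and a call needed an adjusted p under 0.05. A gene of several probe sets was represented by the brightest. Named were all member probe sets, up to 4 changed genes of a list at each time point, and the 5 genes most correlated with each member. Mitf, Rlbp1, Krt18 and Arnt at 0 h and Rgr at 2 h fall outside this rule and were named after their values were seen. Marker sums were log2 of summed linear signals, and correlations used 100000 permutations within groups, two-sided. The members and lists were chosen with earlier results of these data known. Scripts were tested on simulated data with 200 changed probe sets. The small number of arrays limits the precision.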

Additional observations from a re-analysis of the deposited data

Results flagged for a closer look

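The hypoxia effect on Pon1 was called different between time points by the test of the difference. Pon1 was tested only through hypoxia 0 h, since its mean was below the threshold in every other group, so a larger effect at 0 h was built into its selection. The effect at 0 h exceeded the effect at 2 h by 2.36, that at 4 h by 2.56 and that at 16 h by 3.00 on the log2 scale (limma adjusted p = 0.00237, 0.000529 and 9.95e-05). The summed RPE marker signal moved with Pon1 in the same arrays, though not every marker did.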

How the results depend on the processing

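The Pon1 difference at 0 h kept its call in 37 of 38 alternatives. This tally has limits, since Pon1 passed the signal filter only through hypoxia 0 h. Many alternatives also leave out an array of another time, which cannot change the 0 h means. With the summed RPE markers as a covariate, added after seeing the data, the Pon1 difference at 0 h was 0.66. In that fit 0 member probe sets were called, and the Pon1 difference at 2 h was -0.10. Of all probe sets tested at 0 h, 658 were called in that fit, against 6091 without the covariate. Leaving out single arrays gave Pon1 differences of 2.77 to 3.16 at 0 h. Hypoxic and normoxic arrays of the same time and replicate number had weakly correlated residuals (-0.23 to 0.24, over 0.1 in 2 of 12 pairs). Whether the replicates were prepared in pairs cannot be told from these correlations. The Pon2 (1429019_s_at) effect at 0 h minus that at 16 h did not pass the threshold in 28 of 34 alternatives. It passed with a replicate block within a time point (0.58, limma adjusted p = 0.0458), with quantile normalization (0.59) and with a trended and robust spread (0.58). It was 0.46 to 0.74 when single arrays were left out. The cause was not tested. The 4 h differences of Pon2 changed sign without single arrays, from -0.24 to 0.061 (1429019_s_at) and from -0.16 to 0.030 (1450686_at). With the fibroblast sum as a covariate they were 0.089 and 0.15, and 1450686_at at 2 h was 0.0094. Pon3 at 16 h was -0.10 with that covariate and -0.47 to -0.081 without single arrays. Counting any probe set of a gene at 2 h gave 1 HDL gene lower and, of the peroxide enzymes, 1 higher and 2 lower.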
